A study of Mus musculus with 3 samples.

Results

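The methylated regions of mouse epididymal fat that lie in gene deserts, far from any protein-coding gene, were examined. Peaks of 3 libraries on the 19 autosomes were pooled, peaks that overlapped by at least 1 bp were merged into regions, and a region was kept when the nearest RefSeq protein-coding gene record lay more than 200000 bp away. This gave 17875 desert regions out of 154503 autosomal regions (11.6%). The tissue was the epididymal fat pad of C57BL/6J males that entered the study at 6 weeks of age, spent 10 weeks on 1 of the 3 diets and were 16 weeks old at harvest. FAD was the high-fat diet with folic acid in the drinking water at 20 μg/mL, HFD was the high-fat diet with about 60% of energy from fat, and ND was the normal diet with about 10%. Methylated DNA was enriched with an antibody and sequenced (MeDIP-seq), and the authors called peaks in each library. There was 1 library per diet, and the labels do not say how many mice each library stands for. So no value below has a replicate check or a test. The intervals given are 95% intervals for counting error over peaks or regions, which lie next to each other on chromosomes and are not independent.

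Gene deserts are long stretches without protein-coding genes. In mammals most CpG sites outside CpG islands are methylated, and MeDIP enriches fragments by the number of methylated CpGs they carry. A peak in a CpG-poor desert may thus mark a local cluster of methylated CpGs. Some deserts hold distant enhancers of the developmental genes at their edges, others hold none that are known, and much of their sequence derives from transposable elements, which somatic cells keep methylated.

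Deserts as defined here made up 458.3 Mb in 731 stretches, 19.1% of the 2403 Mb between the first and the last peak or gene record of the autosomes. The longest stretch spanned 4.14 Mb and the median stretch 345 kb. Not all of them were free of genes. Of the stretches, 3 (6.23 Mb, 296 regions) were antigen receptor loci, whose V, D, J or C segment records RefSeq does not list as protein-coding. Among them, the stretch between Adam6a and Zfp386 on chromosome 12 held 152 such records and the stretch between Gm36448 and Dad1 on chromosome 14 held 123. Without the 3 loci 17579 regions were left, and densities, widths and shares stayed inside their counting intervals. Other records also lay inside deserts, among them 1095 of long non-coding RNAs (lncRNAs) and 1172 of pseudogenes. Of the desert regions, 1406 (7.87%) overlapped an lncRNA record and 387 (2.17%) a pseudogene record, while 16034 (89.7%) overlapped no gene record of any kind.

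The sequence of the regions themselves could be read only where a promoter window of a non-coding gene fell in a desert. RefSeq windows (build GRCm38.p6, 250 bases before to 50 after a start) gave 1023 such windows. The first 3 printed here lay wholly inside regions with a peak in every library and had the highest mean score ranks of such windows. They are shown in lower case, with each CpG in capitals.
Gm42298 (chr4:71381719-71382018, + strand): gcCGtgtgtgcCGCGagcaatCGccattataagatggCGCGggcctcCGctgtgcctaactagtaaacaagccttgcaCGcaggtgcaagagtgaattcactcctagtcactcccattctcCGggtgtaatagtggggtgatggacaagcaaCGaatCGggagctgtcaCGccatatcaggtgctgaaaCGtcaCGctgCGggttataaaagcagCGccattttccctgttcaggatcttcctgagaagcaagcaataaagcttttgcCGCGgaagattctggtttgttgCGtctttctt
Gm33752 (chr4:7648860-7649159, - strand): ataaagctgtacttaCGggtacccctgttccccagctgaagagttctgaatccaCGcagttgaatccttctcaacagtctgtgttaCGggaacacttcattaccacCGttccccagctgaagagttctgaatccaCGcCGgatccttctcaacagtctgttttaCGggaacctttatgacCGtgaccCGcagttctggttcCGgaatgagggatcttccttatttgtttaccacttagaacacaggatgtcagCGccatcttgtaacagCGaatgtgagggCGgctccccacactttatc
Gm41318 (chr15:49194392-49194691, + strand): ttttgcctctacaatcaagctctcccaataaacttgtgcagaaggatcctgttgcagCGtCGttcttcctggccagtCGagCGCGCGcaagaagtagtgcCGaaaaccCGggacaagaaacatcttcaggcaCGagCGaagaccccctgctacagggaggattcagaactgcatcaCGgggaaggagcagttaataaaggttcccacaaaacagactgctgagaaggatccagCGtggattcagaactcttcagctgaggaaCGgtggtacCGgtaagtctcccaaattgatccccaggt
The Gm42298 window held 19 CpGs, in a region with a peak score of 249 in FAD, 509 in HFD and 344 in ND. The Gm33752 window held 13 CpGs (scores 278, 301 and 259 in FAD, HFD and ND) and the Gm41318 window 14 (210, 244 and 327). All are lncRNA genes. The windows of Gm33752 and Gm41318, on chromosomes 4 and 15, shared a run of 25 bases on opposite strands.

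For comparison, the next windows were the highest-ranked ones in regions found in FAD only, HFD only and ND only. The last is the unmarked desert window with the most CpGs.
A930027H12Rik (chr15:87243297-87243596, + strand): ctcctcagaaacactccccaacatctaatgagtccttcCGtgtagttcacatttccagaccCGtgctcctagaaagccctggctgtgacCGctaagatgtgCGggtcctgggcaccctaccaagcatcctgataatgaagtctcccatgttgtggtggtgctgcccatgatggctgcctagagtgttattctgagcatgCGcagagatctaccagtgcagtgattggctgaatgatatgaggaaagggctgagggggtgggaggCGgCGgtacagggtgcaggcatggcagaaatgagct
Gm831 (chr4:131491060-131491359, + strand): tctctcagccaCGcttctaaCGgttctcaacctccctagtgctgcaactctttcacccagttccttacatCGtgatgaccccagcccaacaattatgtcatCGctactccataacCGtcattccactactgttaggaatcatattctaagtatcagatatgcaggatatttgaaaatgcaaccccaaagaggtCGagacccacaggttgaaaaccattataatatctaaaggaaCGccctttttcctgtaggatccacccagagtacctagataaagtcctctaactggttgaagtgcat
Gm41281 (chr15:29375484-29375783, - strand): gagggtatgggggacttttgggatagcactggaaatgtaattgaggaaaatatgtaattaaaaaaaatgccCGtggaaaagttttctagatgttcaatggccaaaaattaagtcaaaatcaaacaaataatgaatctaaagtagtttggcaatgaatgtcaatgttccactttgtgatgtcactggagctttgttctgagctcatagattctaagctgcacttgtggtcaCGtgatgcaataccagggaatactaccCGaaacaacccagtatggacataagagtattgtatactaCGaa
2410018L13Rik (chr12:23010194-23010493, - strand): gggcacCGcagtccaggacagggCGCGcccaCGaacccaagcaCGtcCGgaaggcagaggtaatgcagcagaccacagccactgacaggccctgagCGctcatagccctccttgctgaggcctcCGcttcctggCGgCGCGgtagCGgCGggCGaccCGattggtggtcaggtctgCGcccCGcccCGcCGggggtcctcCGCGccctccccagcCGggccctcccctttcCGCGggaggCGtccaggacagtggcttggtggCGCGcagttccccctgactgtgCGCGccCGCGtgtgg
The windows of A930027H12Rik (FAD only, score 58.6), Gm831 (HFD only, 149) and Gm41281 (ND only, 113) held 7, 7 and 4 CpGs, fewer than the 3 windows above. Those 3 were picked by rank, and the 28 desert windows marked in all 3 libraries had a median of 8.5 CpGs. The windows of Gm831 and Gm41281 lay only partly inside their regions. The window of 2410018L13Rik held 31 CpGs in 72.7% G and C and had no peak in any library.

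Desert windows with more CpGs were marked more often. Of the 1023 desert windows, 41 (4.01%) were overlapped by a FAD peak, 65 (6.35%) by an HFD peak and 43 (4.20%) by an ND peak, where all 31396 autosomal windows gave 2.84%, 4.76% and 3.31% in FAD, HFD and ND. Most of those windows belong to protein-coding genes. The 10288 windows of non-coding genes outside deserts, the closer class, gave 4.37%, 7.59% and 4.95%. These shares are above the desert ones, though inside their counting intervals. Such windows had a median of 4 CpGs, against 2 in deserts. Among 144 desert windows without a CpG the counts were 0 in FAD, 1 in HFD and 0 in ND, and a count of 0, read as up to 3 windows, allows a share of up to 2.08%. Among the 51 windows with 10 or more CpGs, 15 (29.4%; 18.7 to 43.0%) were marked in FAD, 19 (37.3%; 25.3 to 51.0%) in HFD and 15 (29.4%) in ND. Windows of protein-coding genes with 10 or more CpGs, many of which are CpG islands, were marked in 1.51% in FAD, 1.96% in HFD and 1.67% in ND, out of 11634. CpG-rich windows of non-coding genes outside deserts lay between these, at 8.13% in FAD, 12.0% in HFD and 9.60% in ND, out of 2115. The classes also differed in CpG number, with medians of 12, 23 and 19 CpGs in the desert, protein-coding and other non-coding windows of this class. A CG was present in 85.9% of desert windows and in 94.8% of all autosomal windows.

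Windows marked in every library often held sequence that recurs elsewhere. A run of 30 bases shared, on either strand, with a window of another gene was present in 13 of the 28 desert windows overlapped by a peak of all 3 libraries (46.4%; 29.5 to 64.2%) and in 94 of the 949 unmarked ones (9.91%; 8.16 to 12.0%). In non-coding windows outside deserts the shares were 28.5% of 326 and 8.73% of 9396. Windows of protein-coding genes differed less, with 13.0% of 308 marked windows and 10.0% of 19333 unmarked ones. The labels do not say how reads that match several places were handled, and the part of this in the marked windows was not tested. Desert records of microRNAs numbered 51, of which Mir466f-4, on chromosome 13, was overlapped by a peak in FAD and HFD. In ND the count was 0 of 51, which allows a share of up to 5.88%. The share over all autosomal microRNA records was not computed, so these counts cannot be called high or low. The difference between the libraries rests on 1 record.

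Peaks were sparser in deserts than near genes in every library. In FAD, 11225 peaks lay in deserts, 24.5 per Mb, against 40.7 per Mb in the rest of the autosomes. In HFD, 14761 desert peaks gave 32.2 per Mb, against 59.3 per Mb in the rest, and in ND 11352 desert peaks gave 24.8 per Mb, against 43.6 per Mb. The ratio of desert to other density was 0.602 (0.590 to 0.614) in FAD, 0.543 (0.534 to 0.552) in HFD and 0.569 (0.558 to 0.580) in ND. The ratio was below 1 on all 19 autosomes in each library, with ranges over chromosomes of 0.434 to 0.709 in FAD, 0.388 to 0.661 in HFD and 0.427 to 0.677 in ND. The lowest ratio in each library was that of chromosome 17 and the highest that of chromosome 13. Peaks covered 1.43% of desert sequence in FAD, 2.29% in HFD and 1.67% in ND, against 2.03%, 3.84% and 2.48% of the rest. These densities count assembly gaps as sequence.

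Density was lower far from genes than near them, but did not decline at every step. Inside gene records there were 43.6 FAD, 65.1 HFD and 47.3 ND peaks per Mb. At 1 to 10 kb from a gene there were 37.8 in FAD, 55.0 in HFD and 40.3 in ND. At 10 to 50 kb the densities were higher again, at 42.4, 59.0 and 44.9 per Mb. Between 100 and 200 kb from a gene, just short of the limit, the densities were 31.5 in FAD, 44.3 in HFD and 32.3 in ND. They were 26.3, 35.6 and 26.9 per Mb at 200 to 500 kb, and 22.0, 28.1 and 21.8 per Mb at 500 to 1000 kb. In the 65.7 Mb that lay over 1000 kb from a gene, 22.8 FAD, 27.5 HFD and 22.5 ND peaks per Mb were found, close to the bin before. Neighbouring desert regions lay a median of 14265 bp apart, against 7712 bp in the rest. Of the regions nearest the limit, the 2 just inside it lay 200010 and 200011 bp from a gene, the first in all 3 libraries and the second in HFD only, and the 2 just outside lay at 199982 bp (all 3 libraries) and 199965 bp (HFD only).

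**Figure D1:**
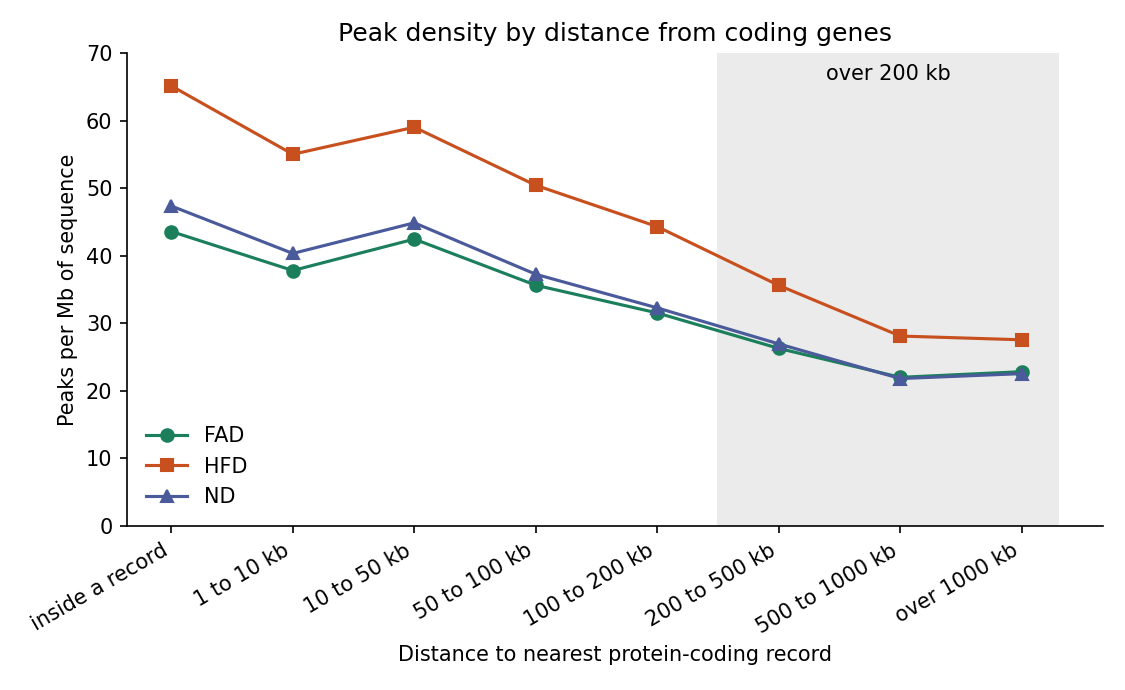
Peaks per Mb of autosomal sequence (y axis) by distance to the nearest protein-coding gene record (x axis) in the FAD, HFD and ND libraries, with the desert range shaded. Density falls from 65.1 per Mb inside records to 27.5 per Mb beyond 1000 kb in HFD, and the FAD and ND lines lie close together in deserts.

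The gap between the libraries was narrower in deserts. HFD had 1.30 times as many desert peaks as ND, against 1.36 times in the rest. FAD had 0.760 times as many desert peaks as HFD, against 0.686 times in the rest, and 0.989 times as many as ND, against 0.934 times. Read depth is not known for these libraries, and its part in the list sizes was not tested.

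Desert peaks were fewer but scored higher and were wider. The score is the authors' own, is at least 50 in every list and is compared here only within a list. The median score in FAD was 105 (103 to 107) in deserts and 95.6 (95.2 to 96.3) in the rest. In HFD it was 104 (102 to 106) in deserts and 99.7 (99.2 to 100.2) in the rest, and in ND 114 (112 to 115) in deserts and 98.6 (98.0 to 99.3) in the rest. The upper tail differed more than the median. The 90th percentile of scores was 317 in deserts and 241 in the rest in FAD, 342 and 279 in HFD, and 378 and 265 in ND.

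The excess lay in the strongest peaks. Deserts held between 10.6 and 11.6% of the FAD peaks in each of the 7 lower score deciles, 13.6% in the ninth decile and 19.3% (18.5 to 20.2%) in the highest. In HFD the shares were 10.3 to 11.4% over the 8 lower deciles and 15.8% (15.1 to 16.4%) in the highest. In ND they were 9.82 to 11.3% over the 7 lower deciles and 19.2% (18.4 to 20.0%) in the highest. Of the 6492 regions with a peak in the highest decile of all 3 lists, 1317 (20.3%; 19.3 to 21.3%) lay in deserts. That is above the deserts' 11.6% of all autosomal regions and close to their 19.1% of sequence. Median widths were 481 bp in deserts and 440 bp in the rest in FAD, 605 and 583 bp in HFD, and 559 and 498 bp in ND. Of the 2281 merged regions of 2 kb or more, 529 (23.2%; 21.5 to 25.0%) lay in deserts, against 11.6% of all autosomal regions. Both measures were higher still far from genes. In ND the median score was 111 and the median width 543 bp at 200 to 500 kb, against 119 and 621 bp over 1000 kb from a gene.

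**Figure D2:**
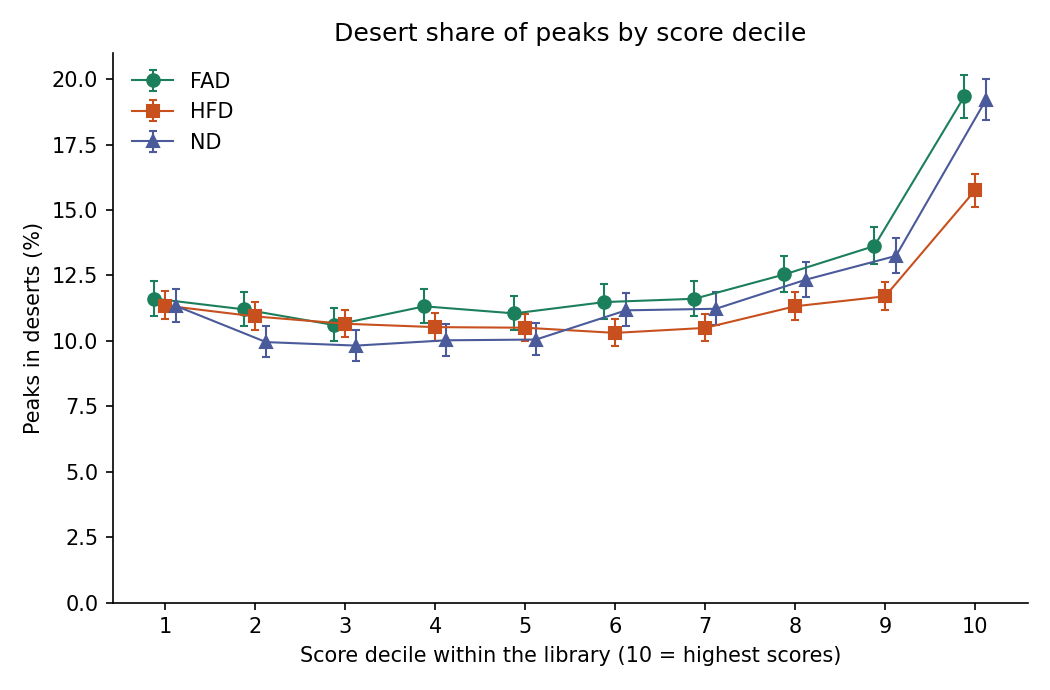
Share of each library's autosomal peaks that lay in deserts (y axis, percent, with Wilson 95% intervals) by score decile within the library (x axis, 10 holding the highest scores). The share lies between 9.82 and 12.5% up to the eighth decile and reaches 19.3% in FAD, 15.8% in HFD and 19.2% in ND in the tenth.

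The desert region with the highest mean score rank lay at chromosome 2, 98666098 to 98667579, between Lrrc4c and Iftap, 1034426 bp from the nearest protein-coding gene, with a score of 3100 in FAD, HFD and ND. Exactly 3100 was also the highest score outside deserts in FAD and in HFD. Equal scores of 3100 thus need not mean equal enrichment, and why this value recurs was not tested. A neighbouring region at 98661950 to 98663310 scored 2610 in FAD, 1926 in HFD and 1947 in ND. This locus is known for anomalously high read counts in mouse sequencing data of many kinds, and the part that plays in these scores was not tested. Another of the 5 highest by this measure, at chromosome 3, 56575275 to 56576044, between the neuronal gene Nbea and Tm4sf1, scored 3178 in FAD, 3027 in HFD and 2851 in ND. A region at chromosome 8, 15519643 to 15520410, between Myom2, which encodes a myofibril protein, and Csmd1, scored 1907, 2276 and 2018 in FAD, HFD and ND. The region at chromosome 12, 93576642 to 93577634, toward the adhesion gene Flrt2, scored 1820, 1714 and 1454. None of these 5 overlapped a gene record, and all were between 768 and 1482 bp wide.

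Width and score did not rank the regions alike. The widest desert region, 8018 bp at chromosome 10, 27817984 to 27826001, between the laminin gene Lama2 and the phosphatase gene Ptprk, had scores of only 94.1 in FAD, 77.6 in HFD and 76.2 in ND. Its peak was 7458 bp wide in FAD, 7910 bp in HFD and 8003 bp in ND. The next, 5215 bp at chromosome 7, 72649991 to 72655205, between Mctp2 and Rgma, scored 224, 371 and 348 in FAD, HFD and ND. Regions of 3863, 3796 and 3758 bp followed, the first of them at the proximal end of chromosome 16 before Olfr161. Among the regions farthest from any protein-coding gene, a 2265 bp region 2216861 bp away, between Pcdh20 and Pcdh9 and inside the lncRNA record Gm33246, scored 236 in FAD, 400 in HFD and 189 in ND. The farthest of all, 2251130 bp away between Celf4 and Pik3c3 on chromosome 18, had an ND peak only, with a score of 63.5.

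Desert regions were shared among the diets slightly more often than others. A peak of all 3 libraries was present in 7658 desert regions, 42.8% (42.1 to 43.6%), against 39.6% (39.3 to 39.8%) of regions in the rest and 40.0% of all autosomal regions. The share was 42.2% at 200 to 500 kb, 43.0% at 500 to 1000 kb and 45.7% over 1000 kb from a gene, and it was higher in deserts than in the rest on 17 of the 19 autosomes. HFD-only regions numbered 4068, 22.8% of desert regions (22.1 to 23.4%), against 24.3% in the rest and 24.1% of all. FAD-only regions made up 7.67% (1371 regions), against 6.23% in the rest and 6.40% of all, and ND-only regions 7.96% (1422; 7.57 to 8.36%), against 7.60% and 7.64%. The ND-only interval holds the share of the rest, and under 3 alternatives the share was lower in deserts than in the rest. Regions with peaks in FAD and ND but not HFD were the rarest, 473 or 2.65%, against 2.27% in the rest and 2.31% of all. Peaks in HFD and ND without FAD showed the largest relative gap, with 1502 regions or 8.40% (8.01 to 8.82%) in deserts, against 11.5% in the rest and 11.1% of all. Regions with FAD and HFD but not ND numbered 1381, or 7.73%, against 8.54% and 8.45%.

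**Figure D3:**
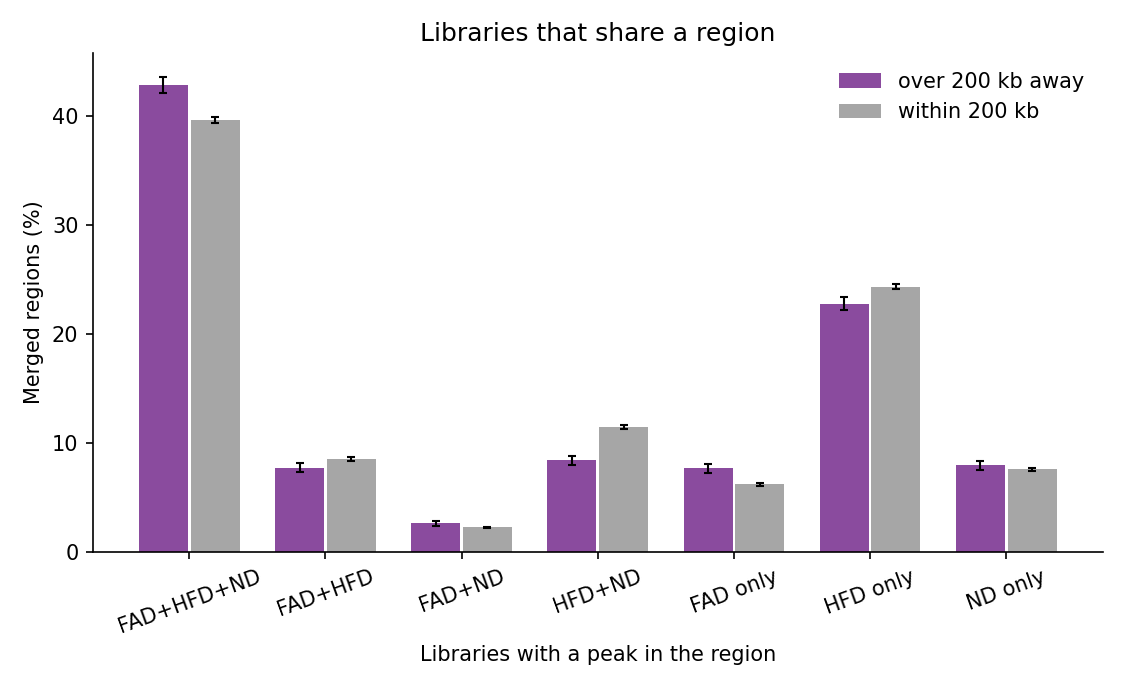
Percent of merged regions (y axis, with Wilson 95% intervals) that held a peak of each combination of libraries (x axis), for regions over 200 kb from a protein-coding gene and for regions within 200 kb. Regions in all 3 libraries make up 42.8% in deserts and 39.6% in the rest, and regions in HFD and ND without FAD 8.40% and 11.5%.

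By diet comparison, HFD had a peak and ND none in 5449 desert regions (30.5%, against 32.9% in the rest and 32.6% of all), and the reverse held in 1895 (10.6%, against 9.86% and 9.95%). FAD had a peak and HFD none in 1844 desert regions (10.3%, against 8.50% in the rest and 8.71% of all), and HFD had one and FAD none in 5570 (31.2%, against 35.8% and 35.2%). FAD had a peak and ND none in 2752 (15.4%, against 14.8% in the rest and 14.8% of all), and ND had one and FAD none in 2924 (16.4%, against 19.1% and 18.7%). Both comparisons with HFD use the same library, so their values are not independent. With lists of equal length the order of the single-library classes changed: FAD-only regions made up 13.2% of desert regions, HFD-only 10.8% and ND-only 10.6%.

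Sharing at a given score did not favour deserts throughout. Among the weakest FAD decile, 47.9% (44.9 to 50.9%) of desert peaks lay in a region with an HFD peak, against 60.4% (59.4 to 61.5%) in the rest, and among the weakest ND decile 46.2% (43.2 to 49.1%), against 55.6% (54.6 to 56.7%). Desert shares were the higher ones in 3 of 10 deciles for FAD peaks in HFD and in 1 of 10 for ND peaks in HFD. For HFD peaks in FAD they were higher in 9 of 10, by up to 8.01 percentage points. In the fifth decile 56.5% of HFD desert peaks were shared with FAD, against 48.5% in the rest. HFD peaks cover a smaller share of desert sequence than of the rest, as given above, and the part of this in the weak deciles was not tested. In the highest decile nearly all peaks were shared, the lowest share being 99.6% for HFD peaks with ND in the rest.

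Among regions with 1 peak of every library, those in deserts ranked lower in HFD than in the other libraries. To set lists of different length side by side, the 7122 desert regions and 51408 others with exactly 1 peak per library were ranked by score within each library, so that each rank runs over the same regions. The median desert rank was percentile 58.3 in FAD, 53.2 in HFD and 58.7 in ND, against 48.9, 49.5 and 48.9 in the rest. The rank in HFD minus that in ND had a median of -3.02 percentile points in deserts and 0.0799 in the rest, and HFD ranked above ND in 39.8% of desert regions, against 50.4% in the rest. The rank in FAD minus that in HFD had a median of 2.26 in deserts and -0.187 in the rest, and FAD ranked above HFD in 57.5% of desert regions, against 49.3%. FAD minus ND differed little, at -0.432 in deserts and -0.0431 in the rest.

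The difference followed distance. HFD minus ND had a median of 1.38 inside gene records, -1.54 at 100 to 200 kb, -2.43 at 200 to 500 kb and -3.84 over 1000 kb away. FAD minus HFD, which shares the HFD library with it, had -1.34 inside records, 1.85 at 200 to 500 kb and 2.72 over 1000 kb. The HFD minus ND median was lower in deserts than in the rest on all 19 autosomes, ranging from -4.54 to -1.40 in deserts and from -0.812 to 0.806 in the rest. FAD minus HFD was higher in deserts on all 19, and FAD minus ND was lower in deserts on 13 and higher on 6. A shift in rank is relative: it says that desert regions stood lower among the shared regions of the HFD list, not that their methylation was lower. HFD is the longest of the 3 lists, and the part of depth or enrichment in the shift was not tested. Width differences were compared in the same regions. The HFD peak was wider than the ND peak in 71.3% of these desert regions, by a median of 74 bp, against 75.7% and 97 bp in the rest, and the FAD peak was wider than the HFD peak in 13.4%, with a median difference of -155 bp, against 11.2% and -170 bp. The FAD peak was wider than the ND peak in 28.7% of the desert regions, with a median difference of -67 bp, against 29.2% and -60 bp in the rest.

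**Figure D4:**
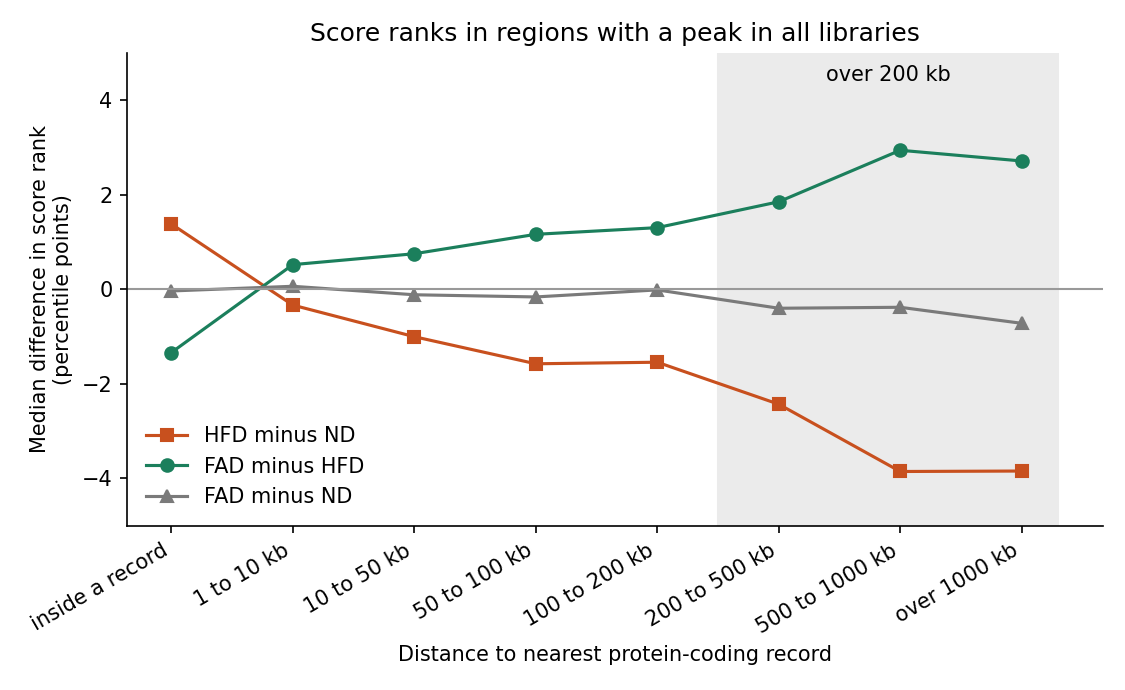
Median difference in score rank between 2 libraries (y axis, percentile points) by distance to the nearest protein-coding gene record (x axis), over regions with exactly 1 peak in each library. HFD minus ND moves from 1.38 inside records to -3.84 beyond 1000 kb and FAD minus HFD from -1.34 to 2.72, while FAD minus ND stays between -0.718 and 0.0649.

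Every long desert held regions. Stretches of at least 1 Mb numbered 141 and held 9288 regions, with a median of 34.3 regions per Mb, quartiles of 30.9 and 39.7, and a range of 19.4 to 82.5. HFD peaks outnumbered ND peaks in 136 of the 141, FAD peaks were fewer than HFD peaks in 135, and FAD peaks were more numerous than ND peaks in 63 and fewer in 64. The median ratio of peak numbers was 1.27 for HFD over ND, 0.792 for FAD over HFD and 1 for FAD over ND.

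The longest interval, 4.54 Mb between the protocadherin genes Pcdh20 and Pcdh9 on chromosome 14, held 143 regions in its 4.14 Mb of desert, with 99 peaks in FAD, 121 in HFD and 83 in ND. A peak of every library stood at each of the 4 positions that scored highest in FAD and in ND. At 183 kb into the stretch the scores were 637 in FAD, 685 in HFD and 689 in ND, at 1624 kb they were 676, 711 and 724, and at 3419 kb 617, 684 and 744. At 2240 kb the scores were 732 in FAD, 385 in HFD and 496 in ND. These are scores of separate lists and are not compared in size. The intervals between Celf4, an RNA-binding protein gene, and Pik3c3 (111 regions), Olfm4 and Pcdh17 (111), Cntnap5b and the cadherin gene Cdh20 (147), Tenm3 and Aga (102), and Slc39a10 and Tmeff2 (139) were the next in length, with 27.0 to 38.9 regions per Mb. Of these 6 stretches, all had more peaks in HFD, the longest list, than in FAD or ND.

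**Figure D5:**
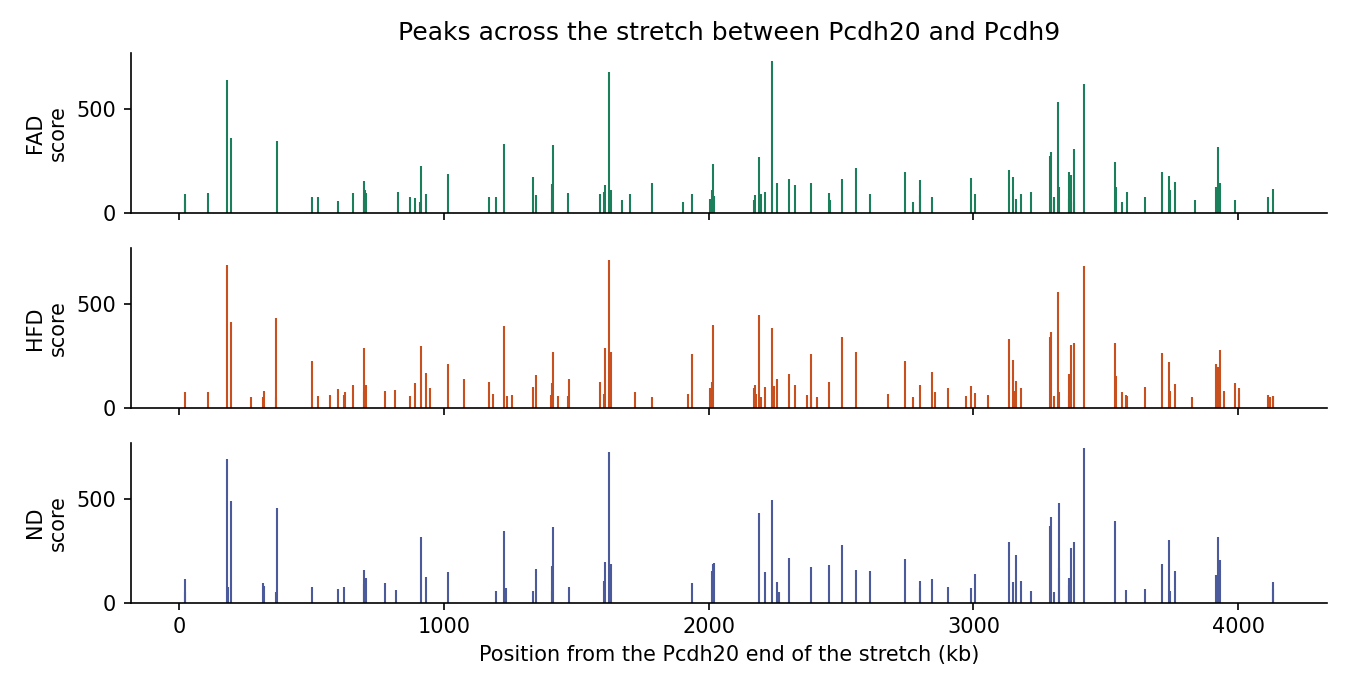
Peaks across the 4.14 Mb desert stretch between Pcdh20 and Pcdh9, placed by distance from the Pcdh20 end (x axis, kb) with the authors' score as height (y axis), in FAD, HFD and ND from top to bottom. The strong peaks at 183, 1624 and 3419 kb stand at the same positions in every library.

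The densest long stretch, at 82.5 regions per Mb, lay on chromosome 18 between Sall3, a zinc finger transcription factor gene of development, and the galanin receptor gene Galr1, with 45 peaks in FAD, 74 in HFD and 44 in ND. The stretch between the neuronal gene Auts2 and Castor2 on chromosome 5 followed with 56.2 per Mb (40 in FAD, 58 in HFD and 36 in ND). The T cell receptor segments before Dad1 gave 54.1 per Mb, with 50, 61 and 57 peaks, and the stretches between Tbl1xr1 and Naaladl2 (53.3) and between Hnf4g and Zfhx4 (52.7) came next. The sparsest lay between the teneurin gene Tenm2 and Mat2b, at 19.4 per Mb over 3.04 Mb (39 peaks in FAD, 49 in HFD and 37 in ND), then between Kif2b and Car10 (20.5), Adcyap1 and Mettl4 (20.6), Khdrbs3 and Fam135b (20.6), and 4931417E11Rik and Ctnna2 (22.9). In the Kif2b stretch the libraries were level, with 20 peaks in FAD, 19 in HFD and 20 in ND, and 60.9% of its 23 regions were in all 3.

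A few stretches, named after their values were seen, stood at the ends of the range. HFD peaks outnumbered ND peaks most between Eno1b and Dtwd2 on chromosome 18 (35 and 16, ratio 2.19) and between Tmpo and Nedd1 on chromosome 10 (43 and 20, ratio 2.15). They were fewer between Sorcs1 and the insulin gene Ins1 on chromosome 19 (25 and 27, ratio 0.926). FAD peaks were fewest relative to HFD between Nrsn1 and Hdgfl1 on chromosome 13 (16 and 33, ratio 0.485). With counts this small, and the ends of 141 stretches picked, such ratios are a description only.

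Stretches beside neuronal adhesion genes had about the region density of all long deserts, of which they are a large part. The remaining long deserts were not summarised on their own. Of 86 autosomal genes of adhesion and axon guidance, a list chosen because such genes are known to lie beside deserts, 45 flanked a stretch of at least 1 Mb, and the 52 stretches beside them held 117.8 Mb and 4009 regions at a median of 34.4 per Mb, near the 34.3 of all long stretches. They included Pcdh20 and Pcdh9, Cntnap5b and Cdh20, and the stretch between Pcdh7 and G6pd2 (131 regions, with 92 peaks in FAD, 106 in HFD and 90 in ND). A median of 44.3% of their regions were in all 3 libraries, against 44.6% over all 141. Of 86 developmental regulators, a list chosen on the same ground, 11 flanked 11 long stretches at a median of 34.6 per Mb, with 41.2% in all 3. Between Zeb2, a transcription factor gene of neural crest, and the activin receptor gene Acvr2a there were 68 peaks in FAD, 90 in HFD and 69 in ND.

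None of the 48 genes with roles in adipose tissue bordered a stretch of 1 Mb or more, where 1.27% of all 20558 autosomal protein-coding genes did, so that a count of 0 is near the background. Of the 48, 14 bordered 15 shorter stretches, with 175 regions in 4.11 Mb. That share is above the background, as 1280 of the 20558 protein-coding genes (6.23%) bordered a stretch of any length. Irx3, Irx5, Bmp2 and Tbx15, among the 14, are also on the list of developmental regulators chosen for lying beside deserts. The stretch before Ppargc1a, the coactivator gene of mitochondrial biogenesis, fell just short of 1 Mb and held 27 regions, with 18 peaks in FAD, 28 in HFD and 17 in ND. Before Irs1, which encodes an insulin receptor substrate, there were 16 in FAD, 18 in HFD and 14 in ND, and beside Bmp4, a growth factor gene that commits precursors to the adipocyte lineage, 9, 16 and 15. Between Irx3 and Irx5, the homeobox genes of the Fto obesity locus, 0.156 Mb held 14 regions (7 peaks in FAD, 11 in HFD and 7 in ND), 5 of them in all 3 libraries. Beside Adamts9 the counts were 7, 12 and 7 in FAD, HFD and ND, and 3 of the 15 regions were in all 3. HFD was not highest in every stretch beside an adipose gene. Between Fermt1 and Bmp2 the counts were 3 in FAD, 3 in HFD and 6 in ND. They were 5, 5 and 6 beside Fgf10, and 2, 2 and 3 beside Tbx15. On the other side of Bmp2 they were 11, 14 and 12. Over all deserts HFD had 1.30 times as many peaks as ND.

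Regions with a peak of 1 library only were named by score. The highest in FAD lay between Nox3 and Arid1b at chromosome 17, 4626067 to 4626696 (score 215), inside the lncRNA record Gm34259, followed by a region toward the cadherin gene Cdh7 (167). In HFD they lay between Khdrbs3 and Fam135b at chromosome 15, 70155346 to 70155721 (score 274), between Psmd7 and the homeobox gene Zfhx3 (267), and between Msx2 and the dopamine receptor gene Drd1 (246). In ND they lay between the homeobox genes Obox7 and Obox2 at chromosome 7 (219), between Trim52 and Slitrk1 (171), and between Brinp3 and the phospholipase gene Pla2g4a (156). These regions ranked between percentiles 72.5 and 89.0 of their own lists, and their widths ran from 266 to 818 bp.

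Regions shared by 2 of the libraries were named by their mean score rank. The highest in FAD and HFD without ND lay between Stxbp6 and Nova1 at chromosome 12, 45868015 to 45868409, with scores of 193 in FAD and 334 in HFD. Another, inside the lncRNA record Gm38863 between Adamts9 and Magi1 at chromosome 6, 93200409 to 93201046, scored 219 in FAD and 250 in HFD. The highest in FAD and ND without HFD lay between Csmd3 and Trps1 at chromosome 15, 49171059 to 49172018 (231 in FAD and 159 in ND), and one between Pik3r1, which encodes a regulatory subunit of phosphoinositide 3-kinase, and Cd180 scored 154 in FAD and 227 in ND. In HFD and ND without FAD, a region between Cox7c and Edil3 at chromosome 13, 87709447 to 87710525, scored 247 in HFD and 232 in ND.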

How the data were processed

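MeDIP-seq peak lists of 3 libraries, 1 per diet, were analysed, with groups taken from the labels. The authors deposited 95501 peaks for FAD, 135124 for HFD and 101532 for ND, each with a score of at least 50 whose scale is not stated. Peak names carry the MACS prefix, per the deposited files, and the build is mm10, per the submitters' processing notes. The sources used here do not name the caller's version, settings or control, the aligner or the read depth. The 316508 autosomal peaks were merged at 1 bp of overlap. Distances ran to the nearest of 20558 autosomal protein-coding records of a RefSeq table of GRCm38.p6, the assembly of mm10. A further 333 autosomal records (107 protein-coding) with scaffold coordinates were left out after the files were seen, which moved no region across the limit. Peak starts were converted to count from 1. The limits of regions and their distances equalled those of bedtools for all 154503 regions, and the code was tested on simulated data. Shared runs of 30 bases had at least 8 different dinucleotides. Stretches and regions were named by rule: the longest, densest and sparsest stretches, and the highest-scoring regions of each sharing class, the widest and the farthest. A few items that these rules select are not reported here. The members, lists and rules were chosen with earlier results of these data known. Intervals are Wilson intervals for shares, order-statistic intervals for medians and normal intervals on the log scale for ratios. The alternatives were other distance limits, every gene record, the higher-scoring peaks, lists of equal length, joined peaks, the sex chromosomes and a reciprocal overlap. No test was possible with 1 library per diet. The tools were bedtools 2.31.1, matplotlib 3.10.9, scipy 1.17.1, pandas 2.3.3, numpy 2.4.6 and Python 3.11.15.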

Additional observations from a re-analysis of the deposited data

Results flagged for a closer look

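The X and Y chromosomes lie outside the rule but carried desert regions too. On X, 949 merged regions lay over 200000 bp from a protein-coding record, and 683 of them held a FAD peak, 710 an HFD peak and 741 an ND peak. On Y there were 881 such regions, with a FAD peak in 670, an HFD peak in 563 and an ND peak in 674. Among all 4180 regions of X, 2756 held a FAD peak, 3098 an HFD peak and 3057 an ND peak, and among all 2994 of Y the counts were 2224, 1864 and 2280. Fewer regions with an HFD than with an ND peak were thus found on Y as a whole, and on X in deserts but not over all regions. These differences were not tested.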

How the results depend on the processing

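No paired analysis was possible because there was 1 library per diet. Density ratios stayed below 1 in every library under all settings that gave one (the reciprocal overlap bears on shares only). Of 92 alternative values 31 lay within the counting interval of the value reported (for the number of regions, within 1.5 times it) and 61 lay outside. With a limit of 100000 bp there were 28381 desert regions, density ratios of 0.638 in FAD, 0.588 in HFD and 0.603 in ND, median widths of 472, 599 and 546 bp in that order, 41.9% of regions in all 3 libraries and 23.5% in HFD only. With 500000 bp the values were 6922 regions, ratios of 0.570, 0.494 and 0.529, widths of 496, 615 and 587 bp, 43.9% in all 3, 21.9% in HFD only and 8.38% in FAD only. With every gene record as a limit, 1944 regions were left, the FAD and HFD ratios were 0.588 and 0.499, widths 495.5, 625 and 590 bp, and shares 45.8% in all 3, 19.8% in HFD only and 8.90% in ND only. With the 50% of peaks that scored highest there were 9088 regions, ratios of 0.674, 0.573 and 0.657, widths of 585, 725.5 and 686 bp, and shares of 49.9% in all 3, 5.82% in FAD only, 18.3% in HFD only and 6.64% in ND only; in the rest these shares were 40.1%, 5.77%, 24.8% and 6.79%. With 95501 peaks from each list, widths were 657 bp in HFD and 568 bp in ND, and shares 46.5% in all 3, 13.2% in FAD only, 10.8% in HFD only and 10.6% in ND only, against 42.7%, 11.7%, 12.3% and 11.6% in the rest. Joining peaks within 500 bp gave 44.9% in all 3, 7.08% in FAD only and 6.95% in ND only. With X and Y the ratios were 0.626, 0.554 and 0.593, widths 486, 610 and 566 bp, and shares 43.7% in all 3, 21.4% in HFD only and 8.37% in ND only. A reciprocal overlap of 50% gave 36.4% in all 3, 10.2% in FAD only, 24.4% in HFD only and 9.32% in ND only. The share of regions in all 3 libraries was higher in deserts than in the rest, and that of HFD-only regions lower, under each setting, while the ND-only share was lower in deserts than in the rest with the 50% of peaks that scored highest, with equal lists and with joined peaks. The cause was not tested. Counting antigen receptor segments as records, chosen after seeing the data, left 17579 regions and all other values inside their intervals. Without replicates or read depth, a difference between libraries cannot be told apart from one between diets.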
